A study of Mus musculus with 42 samples.

Results

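Ifi202b, Tcerg1l, Tpm3-rs7, Prss22, Gm20075, Casr and Syt14 are 7 of the 18664 genes with a named row in the 8 tables of sorted mouse colon cells. They were chosen from their values in Gli1-tdTomato+ stromal cells, where each was near 0 in one genotype and expressed in another. Their stromal levels are therefore given as a description with no test. They were tested in Muc2-mCherry+ goblet cells and organoids, which the choice did not use, and in stroma tests are given only for other genes. All 7 had a row in at least 1 stromal table and 5 had one in all 4 stromal tables. In goblet cells 3 of the 7, Prss22, Gm20075 and Tpm3-rs7, had a row in all 4 tables, and Ifi202b, Tcerg1l, Casr and Syt14 had none, so no goblet level is given for them.

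RNA sequencing gave 42 libraries in 12 tables. Stromal cells came from GWTT mice (Gli1-CreERT2 with Rosa26-tdTomato), GS4T mice (the same with floxed Smad4) and GA3T mice (the same with floxed Alk3), and goblet cells from GWTM2, GS4M2 and GA3M2 mice, which carry Muc2-mCherry in place of tdTomato. All of these mice, controls included, carried Gli1-CreERT2, which is active in Gli1-expressing cells, and received tamoxifen, with cells taken on day 30. Goblet cells are thus sorted from mice whose deletion lies in the stroma. Each genotype had 2 libraries from the proximal and 2 from the distal colon, and wild-type colon organoids had 3 libraries for each of control, 10 nM IL-1 (IL-1α with IL-1β) and 10 nM IL-17A at 12 and at 72 h. Mice of both sexes were used. The sources used here do not give the strain or say whether replicate libraries came from separate mice, so p-values measure the spread between libraries.

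The genes have unrelated roles. Bone morphogenetic proteins signal through receptors that include ALK3, encoded by Bmpr1a, to transcription factor complexes that contain Smad4, and in the colon this pathway restrains crypt growth. Ifi202b encodes an interferon-inducible DNA-binding protein of the PYHIN family and is known to be expressed in some inbred mouse strains and not in others. Prss22 encodes a secreted trypsin-like serine protease of epithelia, Casr encodes the calcium-sensing receptor, and Syt14 belongs to the synaptotagmins, proteins of membrane traffic. Tpm3-rs7 and Gm20075 are single-exon copies of Tpm3, a tropomyosin that lies along actin filaments, and of Btf3l4, a relative of the basic transcription factor Btf3.

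Both copies are annotated as protein-coding retrogenes and are so close to their parent genes that short reads can fit either. Tpm3-rs7 (ENSMUSG00000058126) lies at chr14:113314608-113316754 on the plus strand of GRCm38, and its transcript was 99.1% identical to a Tpm3 transcript over 2108 aligned columns, with 13 mismatches and 6 gap bases. The 747 coding bases differ at 3 positions, which all fall in the stretch shown here, coding bases 54 to 143, with the differing bases in capitals.
Tpm3-rs7: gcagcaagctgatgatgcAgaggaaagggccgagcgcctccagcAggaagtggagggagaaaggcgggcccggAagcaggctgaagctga
Tpm3: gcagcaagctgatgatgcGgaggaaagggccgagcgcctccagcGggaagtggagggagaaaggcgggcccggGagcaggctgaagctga
Gm20075 (ENSMUSG00000114133) lies at chr13:96079216-96081376 on the minus strand and was 99.7% identical to a Btf3l4 transcript over 2110 columns, with 5 mismatches. Its 477 coding bases are the same as those of Btf3l4, and the first 90 are shown to make this plain.
Gm20075: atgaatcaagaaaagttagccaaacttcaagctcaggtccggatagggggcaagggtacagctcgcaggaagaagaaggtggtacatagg
Btf3l4: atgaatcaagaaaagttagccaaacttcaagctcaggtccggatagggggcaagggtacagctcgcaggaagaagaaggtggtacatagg
Of all windows of 100 bases in the Tpm3-rs7 transcript, 49.8% also occur in a Tpm3 transcript, and for Gm20075 and Btf3l4 the share was 74.8%. Ifi202b, Tcerg1l, Prss22, Casr and Syt14 shared no window of this length with another gene. Reads assigned to both copies are therefore uncertain, while those of the other 5 genes do not share sequence in this way.

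RefSeq promoter sequences (GRCm38.p6, 250 bases before to 50 after the start) matched 4 of the 7 genes. Of these, 2 are printed, for the gene near 0 in Smad4 knockout stroma and for one near 0 in control stroma, 5′ to 3′ on the strand of the gene. Capitals mark matches to the Smad-binding element CAGAC, the TATA box TATAAA or the GC-rich Smad site GGCGCC, searched on both strands.
Ifi202b, chr1:173982795-173983094, minus strand: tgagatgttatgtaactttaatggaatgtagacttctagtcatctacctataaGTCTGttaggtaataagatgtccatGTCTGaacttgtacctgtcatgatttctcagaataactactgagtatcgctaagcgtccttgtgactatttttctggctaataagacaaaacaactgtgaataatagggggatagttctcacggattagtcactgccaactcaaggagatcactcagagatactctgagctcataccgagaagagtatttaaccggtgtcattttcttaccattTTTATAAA
Tcerg1l, chr7:138397681-138397980, minus strand: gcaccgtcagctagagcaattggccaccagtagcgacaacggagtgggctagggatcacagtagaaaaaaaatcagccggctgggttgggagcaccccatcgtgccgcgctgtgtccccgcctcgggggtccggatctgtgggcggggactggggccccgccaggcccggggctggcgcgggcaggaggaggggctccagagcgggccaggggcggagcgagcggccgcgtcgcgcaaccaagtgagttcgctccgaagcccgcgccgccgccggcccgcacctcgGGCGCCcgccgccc
The Ifi202b promoter held 2 matches to CAGAC, found in 49.6% of 32851 promoters, and 2 overlapping matches to TATAAA on opposite strands, found in 13.6%. The Tcerg1l promoter held 1 match to GGCGCC, found in 11.9%. The GC content was 37% for Ifi202b, 73% for Tcerg1l, 49.7% for Casr and 71.3% for Syt14, against a median of 52.7%. The Casr promoter held 1 match to the interferon-stimulated response element, found in 3.44%, the Syt14 promoter held none of these motifs, and no promoter of the 4 held the Gli site GACCACCCA, found in 0.253%.

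Levels are given as CPM, the reads of a gene scaled to 1000000 reads of named genes in the library. Stromal libraries held 14222902 to 23686940 reads and goblet libraries 15647603 to 20783127, and a count of 0 allows up to 3 reads, which is 0.127 to 0.211 CPM in stromal libraries (counting error only). The targeted genes followed the labels: Smad4 was 41.5 to 70.1 CPM in GS4T against 94.8 to 109 in GWTT, and Bmpr1a was 105 to 125 CPM in GA3T against 166 to 189. Gli1 was 38.0 to 99.6 CPM in stromal libraries except in GA3T proximal 2 (1.98) and GS4T proximal 2 (1.40). The libraries also differed in sex by their Xist reads: in stroma GWTT proximal 1 and both GA3T libraries numbered 1 were male and the other 9 female, and among goblet libraries both GWTM2 libraries numbered 1 were female and the other 10 male. Reads of other cell types also moved with genotype in stroma. Over 5 epithelial markers the summed level was 10.6 to 412 CPM in GWTT, 520 to 1177 in GS4T and 322 to 785 in GA3T. Over 8 macrophage markers it was 180 to 690, 912 to 2130 and 765 to 1400 CPM, and over 5 neutrophil markers 2.08 to 6.32, 66.4 to 222 and 13.3 to 47.6. Over 6 lymphocyte markers it was 1548 to 4735 CPM in GWTT, 109 to 814 in GS4T and 878 to 1902 in GA3T, where Ms4a1 had no row. The sorted identity itself was present in all: 10 stromal markers summed to 44203 to 62833 CPM in stromal libraries, and 8 goblet markers to 10023 to 63128 CPM in goblet libraries, with GA3M2 lowest at 10023 to 24444. The part of these cells in the levels of Prss22, Tcerg1l, Casr, Syt14 and the copies was not tested. In bulk samples, fewer cells of a type and less RNA per cell cannot be told apart.

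Ifi202b (ENSMUSG00000026535, chr1:173962568-173982744, minus strand) was the one gene near 0 in a knockout and not in the controls. In GWTT cells it was at 51.4 and 57.2 CPM in the distal and 36.3 and 93.3 CPM in the proximal libraries. In GA3T cells it was at 54.5, 104, 96.1 and 96.9 CPM in the same order. In GS4T cells it was at 0.0540, 0.0703, 0 and 0.0583 CPM, which is at most 1 read in a library. All 4 GS4T libraries lay below all GWTT and GA3T libraries, and the GWTT and GA3T ranges overlapped. Of the other PYHIN genes listed, 8 were tested in GS4T stroma, where 16.7% of all genes were called: Ifi204 fell by 1.36 (log2, limma, SE 0.298, adjusted p = 0.00894) and Aim2, which senses cytosolic DNA, rose by 1.13 (SE 0.319, adjusted p = 0.0248). In GA3T stroma, where 5.39% of all genes were called, 0 of 9 were. Its relative Mndal was at 0.835, 0.477, 45.7 and 1.54 CPM in GWTT, 8.93 to 20.96 in GS4T and 0.330 to 1.68 in GA3T. The GWTT library that stood apart was proximal 1, which also held Ifi205 at 95.5 CPM against 4.59 to 8.65 and Ifi211 at 56.7 CPM against 3.87 to 14.3. Ifi205 was at 27.9 to 36.8 CPM in GS4T and 8.15 to 17.8 in GA3T, and Ifi211 at 17.2 to 32.4 and 5.95 to 11.04. For Mndal, Ifi205 and Ifi211 all GS4T libraries thus lay above GA3T and the other GWTT libraries. GWTT proximal 1 lay above GS4T for these genes, while its Ifi202b level was 36.3 CPM. The cause was not tested.

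Tcerg1l (ENSMUSG00000091002, chr7:138208974-138397730, minus strand) was on in both knockouts. It was at 0, 0, 0 and 0.185 CPM in GWTT cells, the last being 3 reads in proximal 2. It was at 6.80, 14.4, 10.3 and 19.8 CPM in GA3T cells. It was at 9.73, 17.9, 10.0 and 4.31 CPM in GS4T cells. The GA3T and GS4T ranges overlapped, and both lay above GWTT. Besides Tcerg1l, 12 genes of a list of 14 for transcription elongation were tested in stroma and 0 were called in either knockout.

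Prss22 (ENSMUSG00000045027, chr17:23993534-23998100, minus strand) was also on in both knockouts, and higher in the Smad4 knockout. It was at 0, 0, 0 and 0.0618 CPM in GWTT cells, 1 read in all. It was at 1.52, 2.21, 1.40 and 2.21 CPM in GA3T cells. It was at 6.48, 13.1, 9.06 and 10.4 CPM in GS4T cells. The 3 genotypes did not overlap. Of a list of 44 serine proteases of secretions and membranes, 14 besides Prss22 were tested in stroma. In GS4T 7 were called higher and 3 lower (16.7% of all genes called), with a median log2 fold change of 1.51 against 0.01 over all genes, and in GA3T 2 were higher and 1 lower (5.39%). Those higher in both were Prss8 (log2 fold change 4.17 in GS4T and 3.43 in GA3T), a membrane-anchored protease of epithelia, and Prss35 (5.70 and 3.54).

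Casr (ENSMUSG00000051980, chr16:36493696-36562141, minus strand) was highest in the Alk3 knockout. No GWTT library held a read of it. It was at 5.91, 7.72, 10.3 and 3.72 CPM in GA3T cells and at 1.30, 0.0703, 2.55 and 0.525 CPM in GS4T cells, where distal 2 held 1 read. All GA3T libraries lay above all GS4T libraries. Syt14 (ENSMUSG00000016200, chr1:192891233-193035775, minus strand) showed the same order: 0, 0, 0.183 and 0 CPM in GWTT cells, 4.64, 5.02, 4.99 and 3.49 CPM in GA3T cells, and 1.13 and 0.281 CPM in the distal GS4T libraries. It had no row in the proximal GS4T table. Of the genes of calcium sensing and transport besides Casr, 10 were tested in stroma, and 3 were called higher and 1 lower in GS4T (16.7% of all genes called) and 2 higher in GA3T (5.39%). Those higher in both were Cldn2, which forms a cation pore in tight junctions, and Stc1, a secreted stanniocalcin. Of the synaptotagmin genes besides Syt14, 4 of 15 tested were called higher and 1 lower in GS4T and 3 of 13 higher in GA3T, and Syt8, Syt12 and Syt13 were higher in both.

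Gm20075 was at 0, 0.0596, 0.122 and 0 CPM in GWTT cells and at 4.54, 7.66, 4.25 and 8.69 CPM in GS4T cells, and it had no row in the GA3T tables. Tpm3-rs7 was by far the most abundant of the copies. It was at 166, 150, 154 and 158 CPM in GS4T cells. It was at 0.338, 0.662, 0.336 and 0.613 CPM in GA3T cells. In GWTT cells it was at 0.358, 1.37 and 0.494 CPM in 3 libraries and at 32.0 CPM in proximal 1, the only male GWTT library. GS4T lay above every other library, and GWTT proximal 1 stood between GS4T and the rest. The same library stood between GS4T and the rest for Srp9, of the signal recognition particle, at 42.0 CPM against 19.1 to 21.8 in the other GWTT and 51.9 to 66.8 in the GS4T libraries, and it was apart from the other GWTT libraries for Mndal, Ifi205 and Ifi211.

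**Figure D1:**
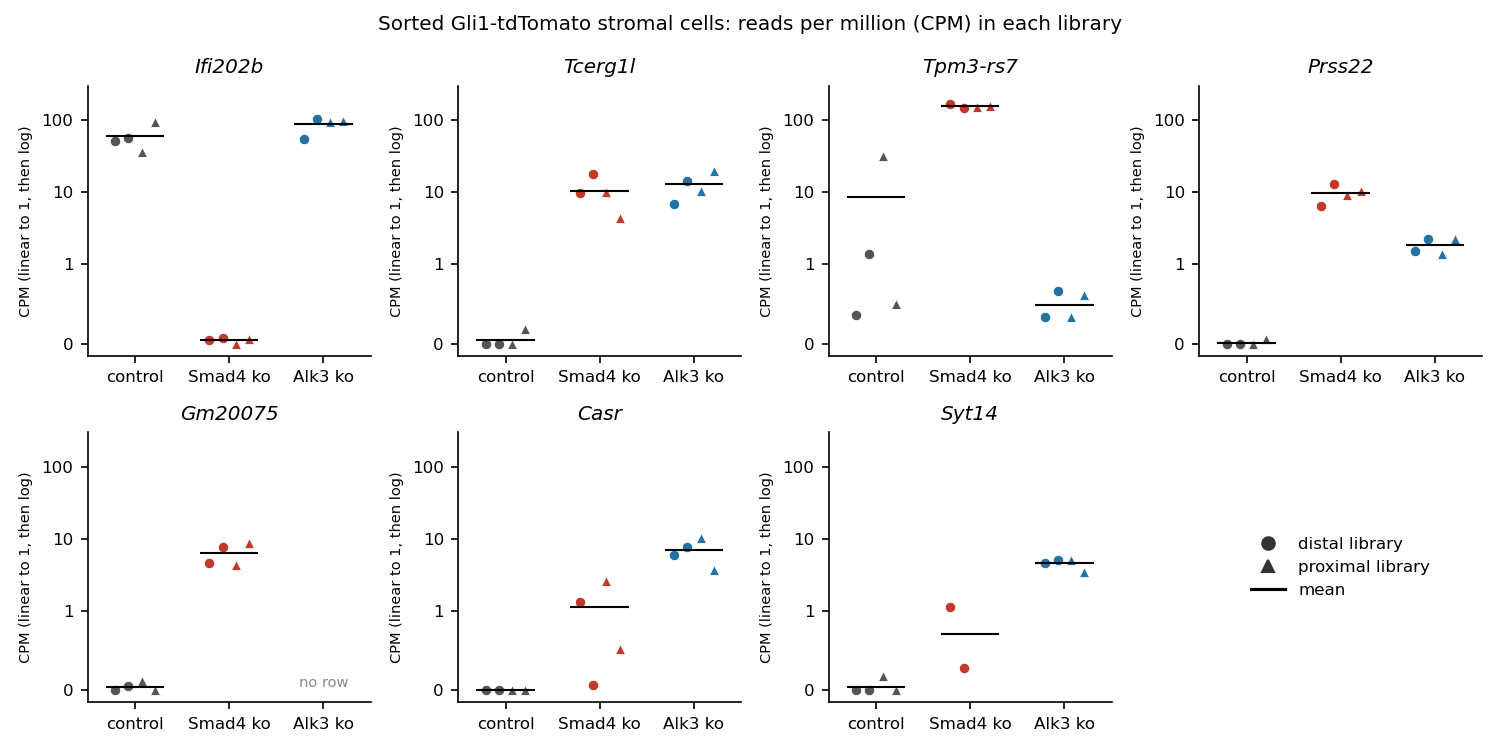
Level of each gene in the sorted stromal libraries (CPM, axis linear up to 1 and logarithmic above), 4 libraries per genotype with the mean as a black line. Ifi202b is at or under 0.0703 CPM in GS4T, Tcerg1l and Prss22 are on in both knockouts, and 1 GWTT library of Tpm3-rs7 stands at 32.0 CPM.

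All 6 genes with 4 libraries in both GWTT and GS4T did not overlap between them (34.9% of all genes). Between GWTT and GA3T 4 of 6 did not (19.5%), with Ifi202b and Tpm3-rs7 overlapping, and between GS4T and GA3T 4 of 5 did not (14.4%), with Tcerg1l overlapping. How rare the full pattern was is shown by a count over all genes of those at or under 0.2 CPM in all 4 libraries of one genotype and at or over 1 CPM in all 4 of another. Between GWTT and GS4T stroma 14 of 16421 genes had it (0.0853%). They were on in GS4T for 12 genes, among them Tcerg1l, Prss22 and Gm20075, and off for Ifi202b and Nkain3. Between GWTT and GA3T it was 4 of 15617 (0.0256%): Casr, Prss22, Syt14 and Tcerg1l. Between GS4T and GA3T it was 1 of 15556 (0.00643%), Ifi202b. Since these libraries chose the genes, nothing follows from these counts and shares about the genes themselves. Tpm3-rs7 did not meet the pattern, because its GWTT and GA3T libraries were above 0.2 CPM. Without GWTT proximal 1 the counts were 21, 5 and 1, and without the 2 libraries low in Gli1 they were 20, 4 and 2, with 4, 4 and 1 of the 7 genes among them in both cases. Just inside the limits stood Tcerg1l, at 0.185 CPM in one GWTT library, and Prss22, at 1.40 CPM in one GA3T library. Casr did not meet the pattern between GWTT and GS4T, at 0.0703 and 0.525 CPM in 2 GS4T libraries.

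In goblet cells the same pattern was met by 1 of 13162 genes between GWTM2 and GS4M2 (0.0076%), 4 of 14043 between GWTM2 and GA3M2 (0.0285%) and 0 of 13134 between GS4M2 and GA3M2 (0%). Prss22, Gm20075 and Tpm3-rs7 were not among them. Ifi202b, Tcerg1l, Casr and Syt14 had no goblet row and could not be. Of the 14 stromal genes between control and Smad4 knockout 9 had rows in the goblet tables, and of the 4 between control and Alk3 knockout Prss22 had. No gene met the pattern in both cell types between the same genotypes. In male goblet libraries only, Prss22 met it in both knockouts, among 4 genes for GS4M2 (0.0304%) and 19 for GA3M2 (0.135%). This setting was chosen after seeing the data and leaves 2 controls, the same 2 that held no read of Prss22. The outcome for Prss22 was thus known in advance, and nothing is drawn from it. The 4 goblet genes of the Alk3 knockout were Chil3, Gpnmb and Spp1, which are expressed by macrophages, and Sycp1, a gene of meiotic chromosomes that was off.

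Prss22 nevertheless stood above the controls in goblet cells of both knockouts. It was at 0.963 and 0 CPM in the distal and 0.706 and 0 CPM in the proximal GWTM2 libraries. It was at 1.80, 2.37, 7.92 and 6.74 CPM in GS4M2 cells in the same order. It was at 11.4, 15.7, 9.65 and 20.4 CPM in GA3M2 cells. The 3 genotypes did not overlap, and the order, GA3M2 over GS4M2, was the opposite of that in stroma, a difference that was not tested. The means were 0.417 ± 0.493, 4.71 ± 3.08 and 14.3 ± 4.81 CPM (SD, n = 4 each). On log2(normalized count + 1) with both segments in the limma fit, the log2 fold change of Prss22 in GA3M2 was 5.95 (SE 0.987, adjusted p = 0.0172). In GS4M2 it was 4.10 (SE 1.05, adjusted p = 0.0975), which did not pass the test. Prss22 passed the filter of a mean of 10 normalized counts only through the knockout libraries. These held 175 to 424 reads in GA3M2 and 32 to 124 in GS4M2, against 17, 0, 14 and 0 in GWTM2. The call in GA3M2 thus rests on the group where Prss22 is high, and nothing further is drawn from it. Both GWTM2 libraries without a read of Prss22 were male and both with 14 and 17 reads were female, while all knockout goblet libraries were male. With sex as a covariate the GS4M2 log2 fold change was 6.06 (SE 0.559, adjusted p = 0.00419), and with male libraries only the adjusted p was 0.00308 (2.65% of all genes called). These are the same contrast and not separate results. With all knockout libraries male, both compare them with the 2 male controls, which held no read of Prss22. Neutrophil markers, of which 3 of 5 had a row, also differed in these cells, with sums of 19.8 to 125 CPM in GA3M2 and 0.378 to 9.01 in GWTM2, and macrophage markers, of which 6 of 8 had a row, summed to 110 to 127 and 41.0 to 149 CPM. Their part in the Prss22 level was not tested.

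Gm20075 was at 0.793, 0.375, 2.37 and 0.252 CPM in GWTM2 goblet cells. It was at 3.04, 2.37, 2.24 and 3.73 CPM in GS4M2 cells and at 5.18, 6.27, 7.05 and 6.69 CPM in GA3M2 cells. All GA3M2 libraries were above all others, while GWTM2 proximal 1 lay within the GS4M2 range. The means were 0.948 ± 0.976, 2.85 ± 0.688 and 6.30 ± 0.811 CPM (SD, n = 4 each). It rose by 3.13 on the log2 scale in GA3M2 (SE 0.567, adjusted p = 0.0209), and in GS4M2 the log2 fold change was 1.92 (SE 0.595, adjusted p = 0.137). With sex as a covariate, which leaves the 2 male controls to compare with, the latter was 2.90 (SE 0.463, adjusted p = 0.0145).

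Tpm3-rs7, which stood at 150 CPM or more in GS4T stroma, was low in goblet cells of every genotype. It was at 1.53, 1.06, 0.454 and 0.756 CPM in GWTM2 cells, at 1.75, 1.21, 1.02 and 1.02 CPM in GS4M2 cells and at 2.05, 1.99, 1.98 and 2.26 CPM in GA3M2 cells. GS4M2 overlapped GWTM2 and GA3M2 lay above both. The log2 fold change in GS4M2 was 0.42 (SE 0.307, 95% interval -0.28 to 1.12, adjusted p = 0.489), and in GA3M2 it was 1.20 (SE 0.351, adjusted p = 0.0701, and 0.0408 from DESeq2, which called 4.96% of all genes). The goblet cells of the Smad4 knockout thus did not show the stromal level of Tpm3-rs7: their highest value was 1.75 CPM.

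**Figure D2:**
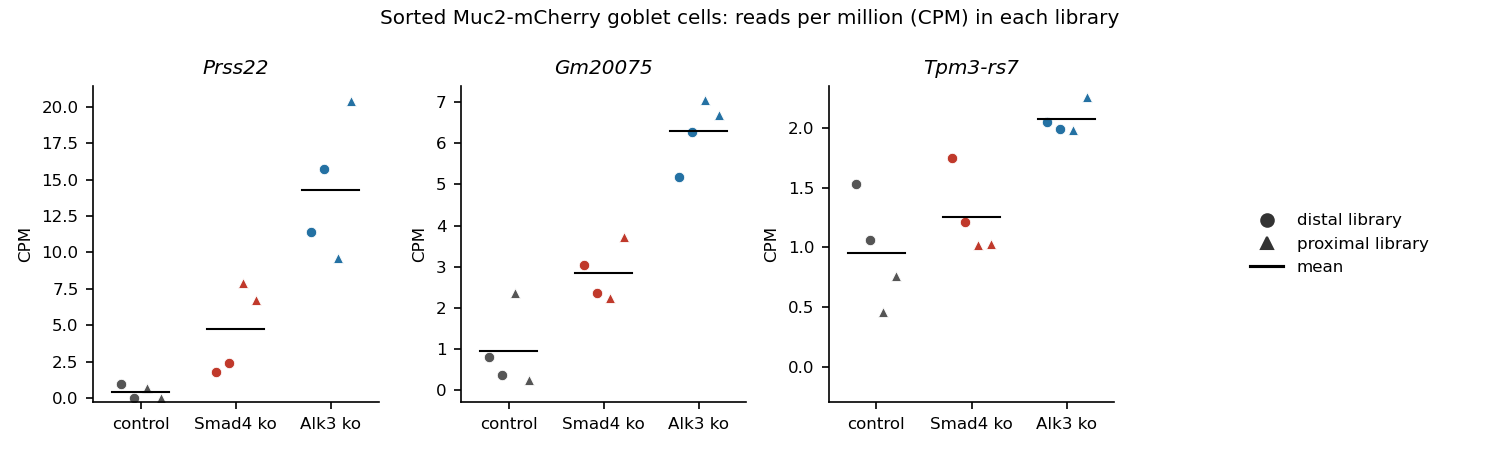
Level of the 3 genes with goblet rows in the sorted goblet libraries (CPM), 4 libraries per genotype with the mean as a black line. Prss22 is at 9.65 to 20.4 CPM in GA3M2 and 0 to 0.963 in GWTM2, and Tpm3-rs7 stays at or under 2.26 CPM.

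By counts, 2 of the 3 genes were called in GA3M2 goblet cells, where 2.92% of 13191 genes were called (1.58% higher). They were Gm20075 and, with the limit of the filter given above, Prss22. In GS4M2 0 of 3 were called, where 0.523% of 13002 genes were (0.269% higher). A gene was called when its adjusted p was below 0.05 and its level changed at least 2-fold. The groups did not overlap for 1 of the 3 between GWTM2 and GS4M2 (8.12% of all genes), for all 3 between GWTM2 and GA3M2 (15.8%) and for all 3 between GS4M2 and GA3M2 (14.6%). With sex as a covariate 2 of 3 were called in GS4M2 (2.37% of all genes) and 2 of 3 in GA3M2 (4.68%), and in male libraries only 2 of 3 in each (2.65% and 4.3%). Both settings compare with the same 2 male controls and are 1 result. The GA3M2 fold changes kept their direction when a library was left out, while their size moved and the calls did not all hold. The log2 fold change ranged from 5.16 (without GWTM2 proximal 2) to 6.82 (without GWTM2 distal 1) for Prss22. For Gm20075 it ranged from 2.55 (without GWTM2 proximal 2) to 3.74 (without GWTM2 proximal 1). Without GA3M2 distal 1 or without GA3M2 distal 2 neither gene was called, with log2 fold changes of 6.07 and 5.91 for Prss22 and 3.15 and 3.07 for Gm20075 and adjusted p from 0.0524 to 0.0628. Without GWTM2 distal 2 Gm20075 was not called (adjusted p = 0.0572), and without GWTM2 proximal 2 Prss22 was not (adjusted p = 0.0541). Over all genes 142, 115, 166 and 64 were called in these settings in turn, against 385 in the main fit. Without GWTM2 distal 1 all 3 genes were called, with an adjusted p of 0.0465 for Tpm3-rs7, as they were by DESeq2. Over all genes 604 of 13216 were called without this library and 696 of 14043 by DESeq2. Without GWTM2 distal 1 Prss22 was also called in GS4M2 (adjusted p = 0.0131), where 250 of 12992 genes were called against 68 in the main fit. When the same-numbered libraries of both segments were averaged, leaving 2 against 2, both GA3M2 adjusted p were 0.155.

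Each segment alone gave 2 libraries against 2, and 0 of the 3 genes were called in any of the 4 tables, in which 0.325% (GS4M2 proximal), 0% (GS4M2 distal), 0.0899% (GA3M2 proximal) and 0% (GA3M2 distal) of all genes were called. The lowest unadjusted p were those of Gm20075 in distal GA3M2 (0.000844 from limma, log2 fold change 3.21) and of Prss22 in proximal GA3M2 (0.00211, log2 fold change 6.15). No difference of the knockout effect between proximal and distal colon passed the test for these genes. For Prss22 in GS4M2 the difference was 1.99 (proximal minus distal, log2, SE 2.14, limma interaction adjusted p = 0.822), and the largest in GA3M2 was 1.20 for Tpm3-rs7 (SE 0.622, adjusted p = 1.00).

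Around the genes and in their families little else passed the test in goblet cells. Of 14 serine proteases tested, Prss22 was called in GA3M2 and Prss23 in GS4M2, where it fell by 1.57 (SE 0.286, adjusted p = 0.0438). None of the tropomyosins (5 tested), the synaptotagmins (12 or 13 of 22), the calcium genes (8 of 15), the elongation genes (12 of 14) and the PYHIN genes (1 of 17) was called in either knockout. Of 31 genes known to vary between inbred strains, Alad, an enzyme of heme synthesis, was called higher (1.12, adjusted p = 0.00730) and Trim30d lower (-1.07, adjusted p = 0.0251) in GA3M2, of 15 tested. Within 1 Mb of a gene of the 7, genes called in GA3M2 included Mptx1 near Ifi202b (-7.98, adjusted p = 0.000292), D330041H03Rik near Prss22 (-1.27, adjusted p = 0.0452) and Csta1 near Casr (2.24, adjusted p = 0.0409), and none was called in GS4M2. The lists were chosen with results of these data known and support nothing by themselves.

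For both copies the parent gene was measured beside them. In GS4T stroma Tpm3-rs7 took 48.2%, 57.0%, 47.8% and 52.1% of the reads assigned to it or to Tpm3. The share was 11.9% in GWTT proximal 1, at most 0.538% in the other GWTT and GA3T libraries and 0.11% to 0.407% in goblet cells. Tpm3 itself was at 179, 113, 168 and 145 CPM in GS4T cells, below the 228 to 254 CPM of GWTT and the 291 to 312 CPM of GA3T cells. The sum of both was 263 to 345 CPM in GS4T, 229 to 269 in GWTT and 291 to 312 in GA3T, so the sums of GS4T overlapped those of both other genotypes while the single rows did not. Gm20075 took 11.1% to 22.3% of the reads assigned to it or to Btf3l4 in GS4T stroma and at most 0.434% in GWTT stroma. Btf3l4 was at 30.3 to 34.2 CPM in GS4T and at 27.7 to 38.0 CPM in GWTT stroma.

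In goblet cells the Gm20075 share was 0.712% to 7.67% in GWTM2, 7.69% to 11.7% in GS4M2 and 13.9% to 20.1% in GA3M2. Added to its parent, neither copy was called in goblet cells, but this sum could not test the copies. In goblet cells the copy was at most 20.1% of the sum for Gm20075 and 0.407% for Tpm3-rs7. Its own change could therefore not move the sum 2-fold, which a call needs. The log2 fold change of the Btf3l4 pair was 0.26 in GA3M2 (SE 0.141, adjusted p = 0.263) and -0.21 in GS4M2 (SE 0.0959, adjusted p = 0.279), and that of the Tpm3 pair 0.32 (SE 0.115, adjusted p = 0.114) and 0.19 (SE 0.0907, adjusted p = 0.292). The call of Gm20075 in GA3M2 is thus a call of the row of the copy, and nothing is drawn from the sum.

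**Figure D3:**
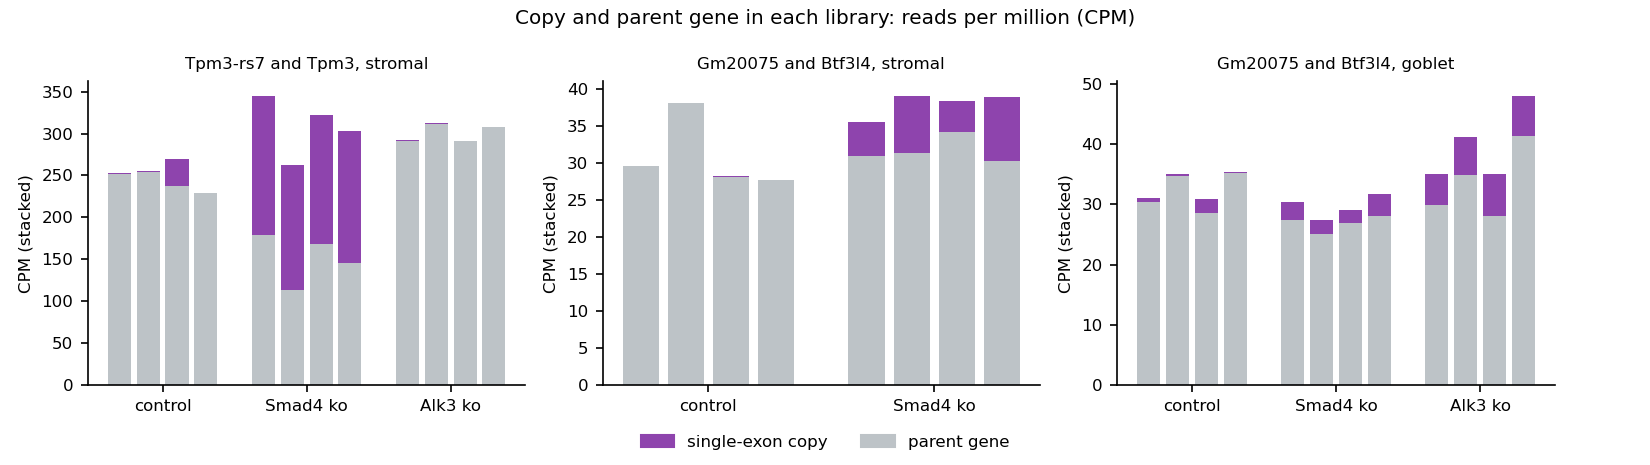
Reads assigned to each single-exon copy and to its parent gene (CPM, stacked bars from 0), 1 bar per sorted library in the order distal 1, distal 2, proximal 1, proximal 2 within a genotype. In GS4T stroma Tpm3-rs7 makes up 47.8% to 57.0% of the stack and Tpm3 is lower than elsewhere, while GWTT proximal 1 shows 11.9%.

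The genes whose levels followed these most closely were taken by Pearson correlation of log2(CPM + 1), a description over libraries that share genotype, sort and depth. Over the 24 sorted libraries and 12338 genes, Prss22 went with Marcksl1 (r = 0.94), the laminin gene Lama3 (0.91) and Sema7a (0.88), and Tpm3-rs7 with Ceacam2 (0.87), Cndp2 (0.77) and Apbb2 (0.77). The other 5 genes have no row for all 24. Ceacam2, an epithelial adhesion gene, was at 69.3 to 173 CPM in GS4T, 0.477 to 1.3 in GWTT and 0.221 to 24.3 in GA3T stroma, where the highest was proximal 2, and at 0.843 to 3.53 CPM in goblet cells. Over the 12 stromal libraries alone, a range chosen after the values were seen, Ifi202b went with 1500004A13Rik (0.99) and Catspere2 (0.98), Tcerg1l with Ppard and Tmem151b (0.98 each), Tpm3-rs7 with Srp9 (0.98) and Casr with Elovl6 and Vtn (0.94 each).

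In organoids Prss22, Gm20075, Tpm3-rs7 and Syt14 had rows at both times and Tcerg1l at 72 h. The organoids were wild type, so they ask whether IL-1 or IL-17A alone moved these genes in epithelium. The control libraries hold fewer cultures than labels: 2 of the 3 controls at 12 h and at 72 h had the same reads in all 14735 shared rows, so 16 of the 18 libraries are distinct, and the 12 h and 72 h results share those controls. Whether the shared controls were cultured for 12 h or for 72 h is not known. A difference from controls may thus hold time in culture as well as treatment, and these cannot be told apart here. At 72 h Prss22 was at 0.587, 0.569 and 1.37 CPM in controls, at 2.0, 7.10 and 5.23 CPM with IL-1 and at 2.09, 3.00 and 8.19 CPM with IL-17A. Both treated groups lay above the controls without overlap, which 51.6% of all genes showed for IL-1 in either direction and 43.9% for IL-17A. Prss22 rose by 2.64 with IL-1 (log2, SE 0.558, adjusted p = 0.0100), and with IL-17A the log2 fold change was 2.45 (SE 0.659, adjusted p = 0.0544, and 0.0020 from DESeq2, which called 16% of all genes). At 12 h Prss22 was at 0.464, 0.587 and 1.37 CPM in controls, at 0.810, 2.44 and 2.35 CPM with IL-1 and at 1.13, 2.91 and 2.89 CPM with IL-17A. Both groups overlapped the controls (10.5% of all genes did not for IL-1 and 11.6% for IL-17A), with log2 fold changes of 1.18 (SE 0.575, adjusted p = 0.886) and 1.52 (SE 0.534, adjusted p = 0.926).

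Tcerg1l stayed below 2 CPM in organoids. At 72 h it was at 0, 0.379 and 0.0571 CPM in controls, at 0.50, 0.591 and 1.82 CPM with IL-1 and at 0.657, 0.180 and 1.47 CPM with IL-17A, where it was below the filter of a mean of 10 normalized counts. With IL-1 its log2 fold change was 2.80 (SE 0.901, limma adjusted p = 0.0415), a call lost in 9 of 12 alternatives. It passed the filter only through the IL-1 libraries, with 8, 10 and 32 reads against 0, 6 and 1 in controls. With upper-quartile scaling or without IL-1 replicate 3 it was below the filter. Nothing is therefore drawn from this call. Syt14 was at most 0.632 CPM in any organoid library and below the filter. Tpm3-rs7 was at 0.979 to 3.03 CPM in all organoid libraries, with log2 fold changes of -0.24 to 0.46 and no call. Of the genes tested, 2 were called with IL-1 at 72 h (23% of all genes, 10.9% higher): Prss22 and, with the limit given above, Tcerg1l. The count was 0 with IL-17A at 72 h (7.94%), 0 with IL-1 at 12 h (0.0542%) and 0 with IL-17A at 12 h (0.0385%).

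Gm20075 split the organoid libraries within each treatment. In controls at 12 h it was at 5.04, 5.70 and 0 CPM, with IL-1 at 4.79, 0.116 and 0.230 CPM and with IL-17A at 4.88, 0.350 and 0.792 CPM. At 72 h it was at 5.69, 0.0632 and 0 CPM in controls, at 4.12, 0.118 and 1.59 CPM with IL-1 and at 4.42, 8.23 and 0.917 CPM with IL-17A. Every group held both high and low libraries, and no treatment effect was called (adjusted p from 0.173 to 0.999). With the replicate number as a block, Gm20075 was called higher with IL-17A at 12 h (log2 fold change 1.93, SE 0.432, limma adjusted p = 0.000318). Only replicates 1 and 4 are in both groups. Replicate 1 held 82 reads with IL-17A against 87 in the control, and replicate 4 held 14 against 0. The rise thus came from replicate 4 alone. With the block 120 of 12977 genes were called, against 5 in the main fit. Nothing is therefore drawn from this call of Gm20075. Every library above 4 CPM was male by Xist, and of the low ones IL-1 replicate 3 and IL-17A replicate 3 at 72 h were male too. Btf3l4 did not split in this way, with 20.7 to 46.0 CPM over all organoid libraries.

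**Figure D4:**
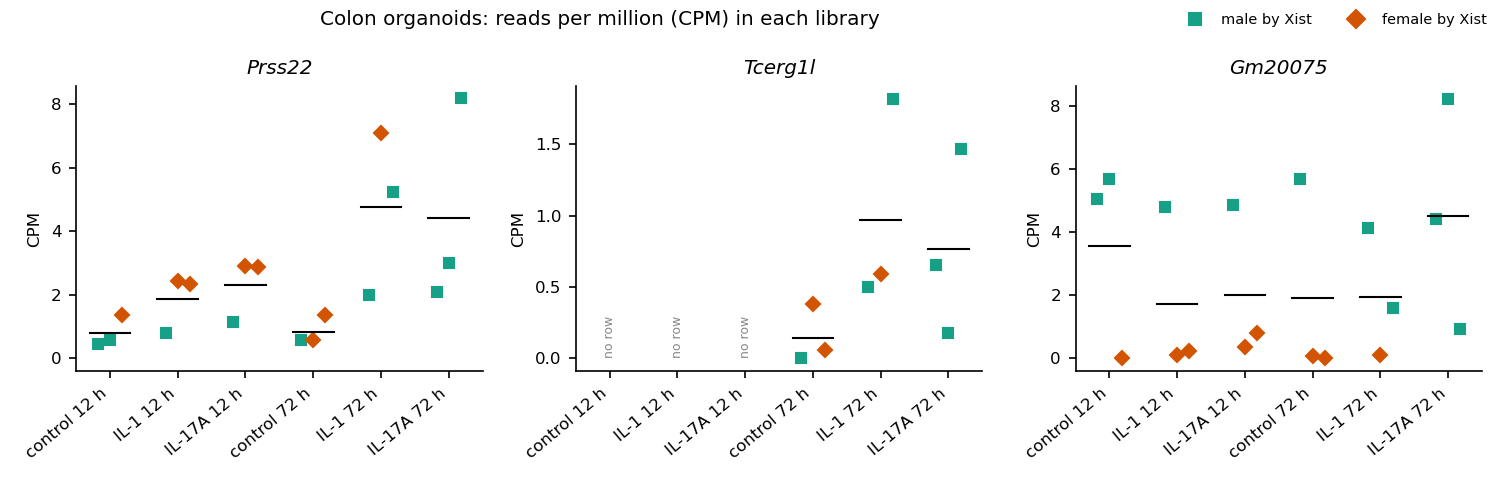
Level of the genes with organoid rows (CPM), 3 libraries per treatment and time, squares for male and diamonds for female libraries by Xist, with the mean as a black line. Prss22 at 72 h is at 2.0 to 8.19 CPM in treated libraries and 0.569 to 1.37 in controls, while Gm20075 falls into high and low libraries in every group.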

How the data were processed

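Gli1-tdTomato+ stromal cells and Muc2-mCherry+ goblet cells sorted from mouse colon and mouse colon organoids were sequenced. The authors mapped reads to mm10 with STAR 2.5.3 and normalized counts with DESeq2 1.28.1 (versions from the submitters' processing notes); the counting program and strand setting are not given in the sources used here. The values deposited by the authors are a normalized signal per gene, gene counts divided by 1 size factor per library within each of 12 tables. All values were whole multiples of 1 step per library (within 0.1), which gave back whole reads and hence CPM. Both GS4M2 tables hold 4 unnamed rows with up to 28.2% of the values, and these were left out. Tables list no gene under a low mean (lowest listed 3.46 to 7.39 in sorted cells), so a missing row is not a value of 0. Both knockouts of a cell type share their control libraries.

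Groups came from the labels. Goblet and organoid values were fitted with limma 3.58.1 (trend, R 4.3.3) on log2(value + 1), genes with a mean of at least 10, segment as covariate where both were used, 2-sided, with Benjamini-Hochberg adjustment over all genes tested. Such fold changes understate low genes. Alternatives were pseudocounts of 0.1 and 10, other filters, upper-quartile scaling, edgeR 4.0.16 and DESeq2 1.42.0 on the recovered reads, a replicate block, sex by Xist (over 1000 reads) as covariate, averaged segments and each library left out. Leaving out 1 of 2 assumes that the lone library varies like the others. Male libraries only, sex in organoids, and copy plus parent were chosen after seeing the data. The fits were tested on simulated data. Genes were named by rule: the 7 genes, the targeted genes and Gli1, the 3 most correlated genes, and list members or neighbours within 1 Mb called in goblet cells, of which 1 neighbour is not reported here. Nkain3, Mndal, Ifi205, Ifi211, Srp9, Sycp1, Chil3, Gpnmb, Spp1 and the stromal list members named were chosen after their values were seen. The 7 genes and all lists were chosen with earlier results of these data known. Positions and transcripts are of GENCODE M21 on GRCm38, the same assembly as mm10, aligned with blastn 2.17.0, and promoters are from RefSeq.

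Same-numbered libraries were not treated as paired in the main fits, since GWTT libraries numbered 1 differ in sex between segments and the labels give a number no meaning. In goblet cells both GWTM2 libraries numbered 1 were female and both numbered 2 male, so 1 mouse may have given both segments. The main fits would then overstate the number of independent libraries. With same-numbered segments averaged, 0 genes were called in GS4M2 against 68 in the main fit, and 6 in GA3M2 against 385. With 2 or 4 libraries a group, precision is set mainly by the number of libraries. Depth gives a floor of 0.144 to 0.192 CPM in goblet libraries.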

Additional observations from a re-analysis of the deposited data

Results flagged for a closer look

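In 27 groups of 4 libraries the highest or lowest library was compared with the others by Dixon's ratio, and 5 stood apart. This picks libraries for a closer look and is not a test. All 5 are stromal levels, which chose the genes. The usual rate of about 1 in 20 groups does not apply: in 3 of the 5 the other 3 libraries were at 0. Any read then gives the highest ratio of 1. Ifi202b in GA3T distal 1 was at 54.5 CPM, with the other GA3T libraries at 96.1 to 104. Tpm3-rs7 in GWTT proximal 1 was at 32.0 CPM, with the others at 0.358 to 1.37. The other 3 were libraries with 1 to 3 reads beside libraries at 0: Tcerg1l in GWTT proximal 2 at 0.185 CPM, Prss22 in GWTT proximal 2 at 0.0618 CPM and Syt14 in GWTT proximal 1 at 0.183 CPM. GWTT proximal 2 also had the highest summed level of epithelial markers among the GWTT libraries (412 CPM), and GWTT proximal 1 the lowest (10.6 CPM). Whether these markers have a part in the reads of Tcerg1l and Prss22 was not tested.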

How the results depend on the processing

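The direction of Prss22, Gm20075 and Tpm3-rs7 in GA3M2 and GS4M2 goblet cells over both segments was the same in every alternative run. Of the 3 genes, the number called in GS4M2 (0) was 2 with sex as a covariate and 2 in male libraries only, which are the same contrast, and 0 to 1 with a library left out. In GA3M2 (2) it was 0 with segments averaged, 3 with DESeq2 and 0 to 3 with a library left out. In the single tables, where 0 were called, it was 1 in proximal GS4M2 with a pseudocount of 10 and 1 with a replicate block. In proximal GA3M2 it was 1 with DESeq2 and 2 with a replicate block, and in distal GA3M2 1 with DESeq2. Leaving out a library there leaves 1 in a group, so no count is given. Such settings also called more of all genes. In proximal GS4M2 the pseudocount of 10 called 62 and the block 260, against 43 as reported. In GA3M2 over both segments DESeq2 called 696 and the block 597, against 385. The added calls are therefore not read as results about the 3 genes. In organoids the 2 calls with IL-1 at 72 h became 1 with a pseudocount of 0.1 or 10, upper-quartile scaling, edgeR with or without the filter, the replicate block and the sex covariate, 0 with a mean of at least 50, and 1 to 2 with a library left out. With IL-17A DESeq2 called 1 at 72 h (0 to 1 with a library left out). The replicate block called 1 at 12 h, Gm20075, with the limit given above. Same-numbered libraries correlated at -0.0573 to 0.302 in goblet tables, 1 value per table, at 0.619 to 0.637 in organoids at 12 h, where controls and treated groups share 2 numbers, and at -0.186 to 0.1999 at 72 h. The block changed no other number of calls. Counts of genes near 0 in one genotype and on in another moved with the limits: between control and Smad4 knockout stroma from 14 to 5 (at most 0.1 CPM), 63 (at most 0.5) and 6 (at least 2), between control and Alk3 knockout from 4 to 2 and 19 (0.1 and 0.5), and between the knockouts from 1 to 2 (0.5) and to 2 without the libraries low in Gli1. In goblet cells the Smad4 count went from 1 to 0 (0.1), 0 (at least 2) and 4 (males only, Prss22 included), the Alk3 count from 4 to 12 (0.5), 2 (at least 2) and 19 (males only, Prss22 included), and that between the knockouts from 0 to 6 (0.5). Signs turned in values that were not called as reported. The log2 fold change of Gm20075 with IL-1 at 12 h (-0.93) became 1.10 with the replicate block, 0.88 with the sex covariate and -3.08 to 0.18 with a library left out. With IL-17A at 12 h (0.02) it was 1.93 and called with the replicate block, and became -0.50 with a pseudocount of 10, -0.79 with edgeR with or without a filter, -0.78 with DESeq2 and -2.15 to 1.15 with a library left out, and at 72 h (3.44) -0.53 with the sex covariate. Tpm3-rs7 with IL-1 at 72 h (-0.02) became 0.0038 with DESeq2 and -0.21 to 0.13 with a library left out, and in distal GS4M2 (0.12) -0.11 to 0.36. The causes were not tested. Over all genes the calls in GS4M2 goblet cells ranged from 0 to 344 (68 as reported), in GA3M2 from 6 to 696 (385), with IL-1 at 72 h from 1513 to 3396 (2998) and with IL-17A at 72 h from 3 to 3577 (1038).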

Other observations

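Of the stromal genes that were on in GS4T and at or under 0.2 CPM in GWTT, Bmp8b, a BMP ligand, had goblet levels in the same order as Prss22: 1.20 to 2.63 CPM in GWTM2, 4.79 to 10.4 in GS4M2 and 8.05 to 32.6 in GA3M2. In stroma it was at 0 in all 4 GWTT libraries, at 3.78 to 9.28 CPM in GS4T and at 0.784 to 3.68 in GA3T. Gm31084 and Adgrf1 were on in goblet cells of every genotype. Gm31084 was at 4.53 to 24.9 CPM in GWTM2 cells and at 11.1 to 16.8 CPM in GS4M2 cells, and Adgrf1 at 1.13 to 5.04 and 2.49 to 9.17 CPM. These genes were named after their values were seen and were not tested as a group.

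In organoids Ceacam2 split the libraries as Gm20075 did. It was at 668 to 1185 CPM in the libraries with Gm20075 at 4.42 CPM or more and at 0.800 to 3.30 CPM in those with Gm20075 at 0.917 CPM or less, over the 13 distinct libraries with a Ceacam2 row. By correlation over the 16 distinct libraries the genes most like Gm20075 were Bsn (r = 0.96), Fam129c (0.95) and Fggy (0.93), a description with no test. In stroma both Ceacam2 and Gm20075 were higher in GS4T than in GWTT, and in goblet cells Ceacam2 was at 0.843 to 3.53 CPM in all genotypes while Gm20075 was not overlapping between GWTM2 and GA3M2.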
